A study of Mus musculus with 4 samples.

Results

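Type I interferon stimulated genes are the genes that cells switch on after sensing interferon-α or interferon-β. The set described here was named gene by gene, not by a threshold on measured values, but with earlier results of these data known. Shares of members set beside shares of all genes are therefore descriptions and not tests. The set lists 40 mouse genes, of which 39 were among the 31053 genes counted and Mx2 was not analysed here. It was read in marker-defined cell classes of back skin from BALB/c mice, in 4 single-cell 3′ RNA libraries. A library of treated WT skin and a library of treated Cd226-/- skin came from mice given 25 µg of the mutagen DMBA once and, 1 week later, 5 µg of the tumor promoter TPA weekly for 3 applications. Cells were taken 3 weeks after treatment, with 3 mice pooled per genotype and CD45+ and CD45- cells mixed 1:1. Untreated (naive) skin gave a CD45+ and a CD45- library; the labels say that both mixed WT with Cd226-/- cells 1:1. Cd226-/- mice lack the activating receptor CD226 (DNAM-1) in all cells. The questions were how high the genes stood in each class of naive skin, how far they were lower after DMBA/TPA, and whether few cells or whole classes carried the naive signal.

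Interferon-α and interferon-β bind a receptor of the chains IFNAR1 and IFNAR2, which signals through JAK1 and TYK2 to transcription factors that include STAT2 and IRF9. These bind the interferon-stimulated response element in promoters and turn on a broad antiviral program. The program holds RNA-binding IFIT proteins, the OAS family that makes the activator of RNase L, the ubiquitin-like ISG15 with its protease USP18, the RNA sensors RIG-I (Ddx58), MDA5 (Ifih1) and LGP2 (Dhx58), and IRF7, which amplifies interferon production. In skin, macrophages, dendritic cells, neutrophils and fibroblasts can all respond. Many of these genes also answer interferon-γ and interferon-λ, so their level does not name the interferon.

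The response element was looked for as the letters GAAA, then NN for any 2 bases, then GAAA, on both strands and counting overlapping matches, in RefSeq promoter windows (GRCm38.p6) from 250 bases before to 50 bases after each gene's start. Windows were found for 30 members by symbol, and 16 of them (53.3%) held a match, against 3.99% of the 27025 genes with a window of the same 300 bases. All 5 IFIT genes had a window and 4 held a match, with Ifit2 as the exception. None of the 5 windows of the members filed as other induced genes (Ifi35, Ifi44, Phf11d, Sp100, Xaf1) and neither receptor chain held one. A match is a description of letters and not a shown binding site. For Bst2, Oas3, Slfn5, Ifi44, Phf11d, Oas2 and Ifi204 the order between naive and treated skin differed between cell classes. Of these, Ifi44 and Phf11d had a window without a match, and Oas2 and Ifi204 had no window. Bst2, Oas3 and Slfn5 held a match. Pieces of 30 bases are printed for these and for Isg15, Ifit3, Ifit3b and Rsad2, which carry the myeloid results. They are 5′ to 3′ on the gene's strand, with the matched letters in capitals.
Isg15, chr4:156200871-156200900, minus strand: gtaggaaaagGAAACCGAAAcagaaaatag
Ifit3, chr19:34583397-34583426, plus strand: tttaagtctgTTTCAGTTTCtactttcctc
Ifit3b, chr19:34607793-34607822, plus strand: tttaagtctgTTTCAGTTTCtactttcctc
Rsad2, chr12:26456553-26456582, minus strand: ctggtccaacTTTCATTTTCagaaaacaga
Bst2, chr8:71537583-71537612, minus strand: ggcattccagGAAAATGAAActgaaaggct
Oas3, chr5:120777715-120777744, minus strand: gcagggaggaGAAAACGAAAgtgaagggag
Slfn5, chr11:82951937-82951966, plus strand: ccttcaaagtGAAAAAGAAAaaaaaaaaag
The matches end 62, 112, 144, 110, 120, 65 and 145 bases before the RefSeq start, in the order printed. In Ifit3, Ifit3b and Rsad2 the match lies on the strand opposite to the gene. Isg15 held 3 overlapping matches, Bst2 held 2 that overlap, and Ifit3 and Ifit3b held 2 each that do not overlap. The printed piece is the same 30 letters in Ifit3 and Ifit3b, near-identical neighbors on chromosome 19. Reads of Ifit3 and Ifit3b, of Ifit1 and Ifit1bl1, and of Oas1a and Oas1g can be split between copies by the counting, so values within each pair are uncertain.

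The filters kept 7042 cells of WT, 6521 of Cd226-/-, 10598 of naive CD45- and 3337 of naive CD45+ skin, at median depths of 6555.5 to 9070 unique molecular identifiers (UMIs, each standing for a captured RNA molecule). Libraries shared 6 to 18 cell barcodes per pair. Cd226 itself stood at 42.0 UMIs per 1000000 in WT lymphocytes, 12.3 in Cd226-/- ones and 4.38 in naive CD45+ ones (8 UMIs), but over all kept cells at 3.18, 1.89 and 4.71, highest in naive CD45+ skin, and at 0.0274 in naive CD45- skin. The deleted part is not given in the sources used here, and a 3′ tag outside it would check nothing. The sort was not complete: the naive CD45- library held 86 macrophages and the naive CD45+ library 153 fibroblasts. Each group is a single library, so nothing here was tested against replicates and no p-value is given. The 95% intervals are exact and cover counting error only, and differences are between libraries.

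A pair of members went against the pool labels. Oas1a, which makes the 2′-5′ oligoadenylate that activates RNase L, had 75 UMIs in treated WT and 182 in naive CD45- cells, but 0 in treated Cd226-/- and 0 in naive CD45+ cells. Its neighbor Oas1g had 16 and 45 UMIs in the first pair and 0 and 0 in the second. In macrophages, Oas1a stood at 3.76 UMIs per 1000000 in WT and 34.4 in naive CD45- skin. The exact interval of a count of 0 reaches 1.21 in Cd226-/- and 0.216 in naive CD45+ skin. Both naive libraries are labelled as the same mix of genotypes, and for these genes they lay on opposite sides. Glo1 and Ctps2, chosen after their values were seen, grouped the libraries the same way. Over all kept cells Glo1 stood at 71.1 in WT and 62.7 in naive CD45-, against 142 in Cd226-/- and 97.1 in naive CD45+ cells, and Ctps2 at 18.4 and 10.4 against 3.23 and 3.09. Which mice gave the library labelled naive CD45+ was not tested. The naive CD45+ library is therefore set beside both treated libraries throughout. Oas1a and Oas1g stay in the core list and in the counts of members, but their own values are read only as this split.

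**Figure D1:**
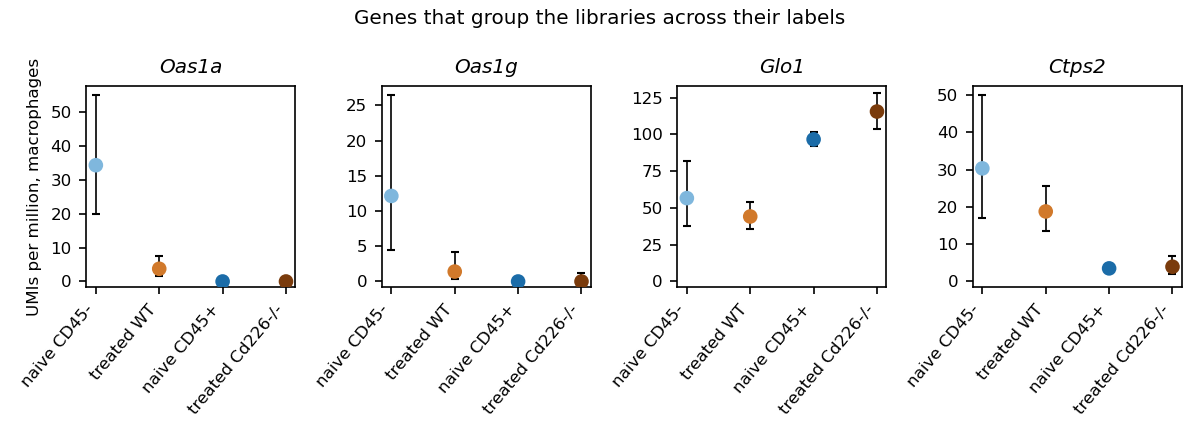
Levels in macrophages of Oas1a, Oas1g, Glo1 and Ctps2 (vertical axis, UMIs per 1000000 class UMIs) in the 4 libraries (horizontal axis), with exact Poisson 95% intervals of counting error. Oas1a and Oas1g are at 0 in naive CD45+ and treated Cd226-/- macrophages and above 0 in naive CD45- and treated WT macrophages.

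Levels in naive skin were summed over a core list of 20 members, 19 of them counted, that holds the IFIT and OAS genes, Isg15, Usp18, Rsad2, Mx1, Irf7, Cmpk2, Ifi44 and Rtp4. A level is the UMIs of a gene or list per 1000000 UMIs of all cells of the class. Classes are named from marker genes and stand for neutrophil-like, monocyte-like cells and so on. Naive neutrophils stood first at 14010 (13830–14191, 526 cells) and monocytes next at 5158 (5082–5234, 258 cells). Macrophages followed at 1987 (1966–2008, 1656 cells) and Langerhans cells at 1919 (1797–2046, 34 cells), and the intervals of these neighbors overlap. Dendritic cells stood at 1001 (973–1030, 327 cells), below every other myeloid class named here. Lymphocytes at 477 (446–510) and endothelial cells at 420 (365–480) overlapped each other, and fibroblasts were lower at 308 (304–312, 10175 cells). Lymphatic endothelial cells were at 206 (142–290, 56 cells). Skeletal muscle at 56.5 (20.8–123, 23 cells) and keratinocytes at 49.2 (31.5–73.3, 61 cells) were lowest and overlapped.

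The order set immune against non-immune classes, and the sort split these between libraries, so classes read in both naive libraries are given too. Macrophages of the naive CD45- library stood at 2085 and those of the CD45+ library at 1987, but their cluster mix differed. Of the CD45- ones 81 of 86 lay in cluster 8, against 788 of 1656 CD45+ ones. Within cluster 8 the levels were apart, at 2200 (2067–2339) in CD45- and 1499 (1472–1525) in CD45+ cells. Fibroblasts of the naive CD45+ library stood at 768 (153 cells), above the 308 of the CD45- library; they were deeper (median 15272 against 6628 UMIs), 39 of them lay in cluster 28 and 27 in cluster 9, and the part of these in the level was not tested. RNA shed by neutrophils was estimated by taking all S100a8 and S100a9 UMIs of a class as shed. It would then account for 0.421% of the core level of naive CD45+ macrophages, 3.09% in monocytes and 2.9% in the fibroblasts of that library. The same estimate gave 251% in treated Cd226-/- keratinocytes, so it is not a measured share, and the part of shed RNA was not tested.

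**Figure D2:**
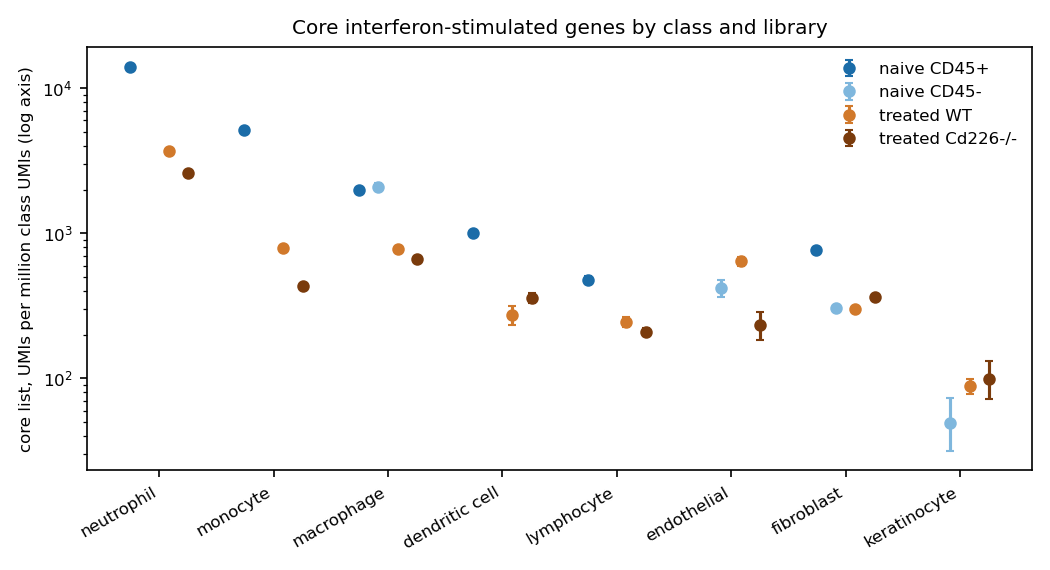
Summed level of the core list (vertical log axis, UMIs per 1000000 class UMIs) by class (horizontal axis) and library (color), with exact Poisson 95% intervals of counting error. Naive neutrophils (14010), monocytes (5158) and macrophages (1987) lie above both treated libraries, while fibroblasts of the naive CD45- library (308) lie near the treated ones.

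Members differed in where they were high. Isg15, the ubiquitin-like modifier, stood at 4563 in naive neutrophils, 1104 in monocytes, 327 in macrophages, 184 in dendritic cells, 167 in lymphocytes and 81.8 in fibroblasts. Rsad2, which makes the antiviral enzyme viperin, stood at 4557, 1104, 190, 51.2, 11 and 3.03 in the same order. Both were highest in neutrophils and lowest in fibroblasts among these 6 classes. Bst2, the membrane protein tetherin that holds budding virus on the cell, had another order, with 522 in dendritic cells, 436 in macrophages, 426 in monocytes and 138 in neutrophils. Ifi27l2a stood at 3158 in macrophages, 2831 in monocytes, 2011 in neutrophils and 1158 in fibroblasts. Mx1, a dynamin-like GTPase, was at 149 in naive monocytes and 49.3 in macrophages but 4.22 in neutrophils, and Ifi44 was at 547, 284 and 7.24 there. Naive neutrophils were therefore not the highest class for every member.

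**Figure D3:**
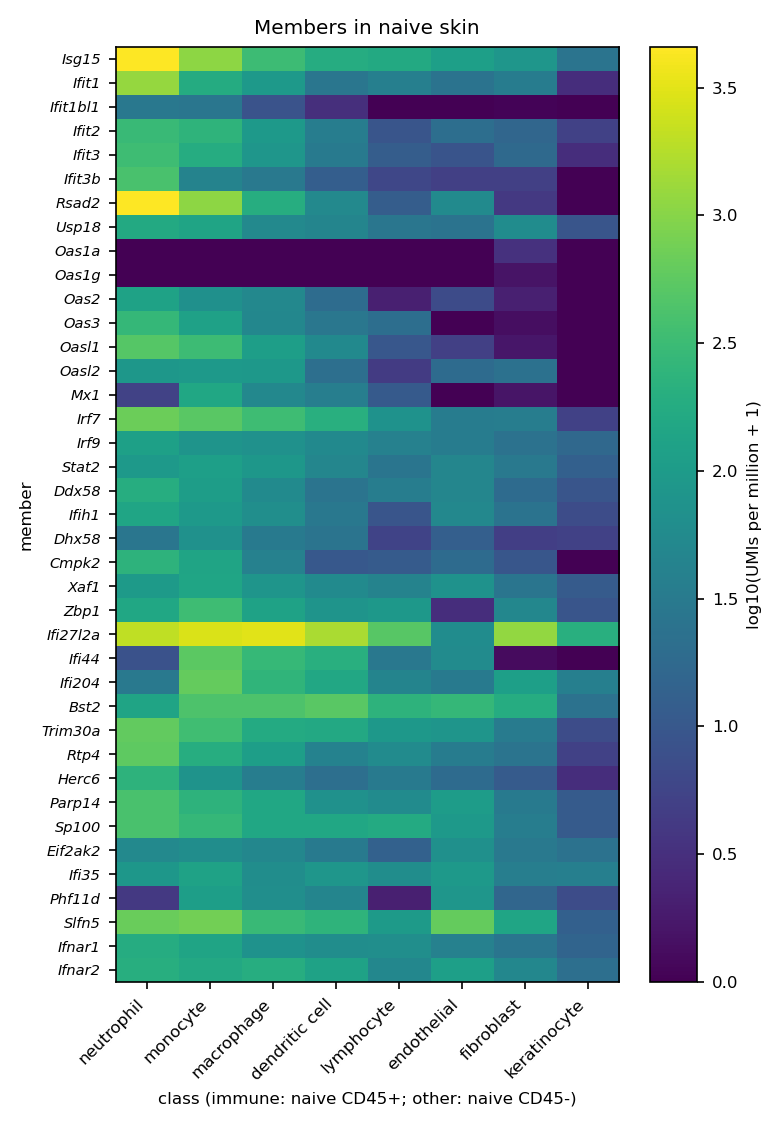
Levels of the 39 counted members (rows) in 8 classes of naive skin (columns), as log10 of UMIs per 1000000 plus 1, from the CD45+ library for immune classes and the CD45- library for the others. Isg15 and Rsad2 are brightest in neutrophils (4563 and 4557), whereas Mx1 and Ifi44 are dark there (4.22 and 7.24).

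Naive neutrophils held the members at higher levels than treated neutrophils at nearly every gene with counts to read. Against WT, 32 members had at least 50 UMIs over both libraries and 31 of them were at least 1.5-fold higher in naive cells; against Cd226-/- it was 34 of 34. The median log2 ratio of these members was 1.84 against WT and 2.68 against Cd226-/-. Genes in general were also higher in these naive neutrophils: 35.5% of all genes with 50 UMIs were at least 1.5-fold higher against WT and 33.9% against Cd226-/-, and the median over all genes was 0.33 and 0.32. The summed core list stood at 14010 in naive cells, 3.81-fold (3.65–3.97) above WT and 5.38-fold (5.17–5.61) above Cd226-/-. The lower direction held 0 members in both comparisons, where 12.1% and 9.15% of all genes were at least 1.5-fold lower.

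Among the roles, the IFIT genes, whose proteins bind viral RNA, held the largest ratios against WT neutrophils. Ifit3 stood at 329 in naive cells against 9.15 in WT and 5.80 in Cd226-/- neutrophils, 36.0-fold (16.4–98.4) and 56.7-fold (25.9–155). Ifit3b stood at 400 against 13.7 and 7.73, 29.1-fold (15.2–64.0) and 51.7-fold (26.1–120). Treated neutrophils of both genotypes thus held nearly no Ifit3 or Ifit3b, with 6 to 9 UMIs per library. Ifit1 stood at 1187 in naive, 97.6 in WT and 60.9 in Cd226-/- cells, and Ifit2 at 306, 22.9 and 5.80. Ifit2 was thereby 52.7-fold (24.1–144) above Cd226-/- and 13.4-fold (8.04–24.1) above WT.

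Isg15 differed by less, since treated neutrophils also held it at a high level. It stood at 4563 in naive, 2291 in WT and 1784 in Cd226-/- neutrophils, 1.99-fold (1.88–2.11) and 2.56-fold (2.43–2.69). Usp18, which removes ISG15 and blunts receptor signaling, stood at 166, 12.2 and 13.5. Within this small conjugation group the ratios therefore ran from 1.99 for Isg15 to 13.6 for Usp18 against WT. The antiviral effector Rsad2 stood at 4557, 592 and 286, 7.70-fold (6.96–8.55) and 15.9-fold (14.2–17.9). Bst2 stood at 138, 44.2 and 30.9. The DNA-binding family member Ifi204 was the single tested member below 1.5-fold against WT, with 29.6 in naive and 30.5 in WT cells (ratio 0.970, 0.566–1.72).

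The regulators were higher in naive neutrophils by less than the IFIT genes. Irf7 stood at 692 in naive, 172 in WT and 142 in Cd226-/- cells, 4.02-fold (3.31–4.92) and 4.87-fold (4.10–5.82). All 3 transcription factors (Irf7, Irf9, Stat2) passed 1.5-fold in both comparisons. The receptor chains did so too: Ifnar1 stood at 181, 83.8 and 59.0 and Ifnar2 at 193, 80.8 and 78.3. The ratios of the chains ran from 2.16 to 3.07. The 1.5-fold mark was also passed by 35.5% of all genes against WT and 33.9% against Cd226-/-. Ifi27l2a stood at 2011, 424 and 239. Dissociation stress genes were lower in the naive neutrophils (18623 against 36578 and 33199 summed per 1000000), macrophage markers were at 1037 against 372 and 196, and fibroblast markers at 89.3 against 1898 and 683; the part of these in the ratios was not tested.

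In clusters built without the members, most members were higher in naive than in treated monocytes. Of 37 members with 50 UMIs, 34 were at least 1.5-fold higher in naive than in WT monocytes and 34 than in Cd226-/- monocytes, where 8.32% and 8.51% of all genes were. Members at least 1.5-fold lower numbered 0 and 0, against 8.11% and 9.50% of all genes. The median log2 ratio was 1.84 against WT and 2.26 against Cd226-/-, with medians over all genes of 0.00 and -0.05. The core list was 6.51-fold (6.23–6.80) above WT and 12.0-fold (11.5–12.4) above Cd226-/-. The 3 members under 1.5-fold in each comparison were the receptor chains and Irf9.

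In monocytes, too, the IFIT genes led. Ifit3 stood at 181 in naive, 4.52 in WT and 2.47 in Cd226-/- cells, 40.1-fold (23.3–75.7) and 73.2-fold (47.0–121). Ifit2 stood at 235, 7.65 and 3.09, 30.8-fold (20.2–49.4) and 76.1-fold (51.2–118). Ifit3b stood at 42.1 in naive cells and had 0 UMIs in WT, 40.3-fold lower there with the 0 set to 3 counts. It had 3 UMIs in Cd226-/- monocytes, a ratio of 113 (38.1–556). Treated monocytes were thus near the floor of detection for these genes. Isg15 stood at 1104, 224 and 98.2, and Rsad2 at 1104, 80.3 and 41.5. Cmpk2, a mitochondrial nucleotide kinase next to Rsad2, stood at 136, 4.87 and 2.84.

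Among the regulators of monocytes, Irf7 and Stat2 differed more than Irf9 and the receptor chains. Irf7 stood at 534 in naive, 134 in WT and 85.7 in Cd226-/- cells, and Stat2 at 114, 46.6 and 33.6. Irf9 differed less, with 76.3, 57.7 and 52.9, a ratio of 1.32 (1.08–1.62) against WT. Ifnar1 stood at 137, 121 and 133 and Ifnar2 at 163, 168 and 168, with ratios between 0.973 and 1.13 whose intervals all include 1. The receptor chains therefore did not differ beyond counting error where IFIT genes differed many-fold. Bst2 stood at 426, 162 and 133, and Ifi27l2a at 2831, 1745 and 1309. Stress genes were at 24133, 24685 and 24338 in the 3 libraries, while naive monocytes were deeper (median 12427 UMIs against 5761 and 6488.5) and held fewer macrophage marker UMIs (1890 against 4985 and 5162 per 1000000).

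The monocyte result depends on how the class was drawn. The members and other interferon genes had been left out of the variable genes for clustering. With them kept in, 126 of the 258 naive monocytes, with a median of 7 core UMIs per thinned cell, joined the macrophage cluster and 131, with a median of 1, stayed. Members at least 1.5-fold higher in naive monocytes were then 8 against WT and 19 against Cd226-/-, and the core ratio was 1.40 and 2.41, while the core ratio of macrophages was 3.15 and 3.86. The naive monocytes richest in these transcripts were thus assigned to either class depending on whether the members entered the clustering, and the monocyte ratio moved with them, to below that of macrophages.

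Macrophages were higher in naive skin at most members but by less. Of 37 members with 50 UMIs, 23 were at least 1.5-fold higher than in WT and 26 than in Cd226-/- macrophages, where 14.6% and 16.2% of all genes were; 0 and 0 were at least 1.5-fold lower, against 7.62% and 9.77%. The median log2 ratio was 0.67 against WT and 0.92 against Cd226-/-, with 0.06 and 0.04 over all genes. The core list stood at 1987 in naive CD45+, 786 in WT and 670 in Cd226-/- macrophages, 2.53-fold (2.41–2.66) and 2.96-fold (2.84–3.1). Naive CD45- macrophages, only 86 cells, stood at 2085, and with them in place of the CD45+ cells the core ratio was 2.65 against WT and 3.11 against Cd226-/-. The naive CD45- library carries Oas1a as WT does and the naive CD45+ library lacks it as Cd226-/- does. The part of this split in the macrophage difference was not tested.

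All 5 IFIT genes passed 1.5-fold in macrophages against both treated libraries. Ifit2 stood at 91.0 in naive CD45+, 117 in naive CD45-, 18.3 in WT and 18.1 in Cd226-/- cells. It was 4.97-fold (3.62–7.01) above WT and 5.03-fold (3.84–6.70) above Cd226-/-. Ifit3 stood at 83.6, 150, 19.7 and 19.4, and Ifit3b at 29.3, 24.3, 4.70 and 1.98 in the same order. Naive values from the separate libraries thus lay on the same side of the treated ones. Ifit1bl1 rests on few counts, with 7.67 in naive CD45+ cells and 1 UMI in Cd226-/- macrophages (ratio 23.3, 4.11–927).

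Other roles were mixed in macrophages. Rsad2 stood at 190 in naive CD45+, 56.7 in naive CD45-, 45.6 in WT and 32.3 in Cd226-/- cells, so the naive libraries differed from each other more than naive CD45- from WT. It was 4.17-fold (3.40–5.15) and 5.89-fold (4.81–7.27) higher in the CD45+ library. Isg15 stood at 327, 213, 148 and 115, and Irf7 at 334, 235, 121 and 118. These kept the order of naive above treated in both naive libraries. Dhx58 (31.0 in naive CD45+, 37.6 in WT; ratio 0.826, 0.652–1.06) and Trim30a (171 in naive CD45+, 171 in WT and 178 in Cd226-/-) did not differ beyond counting error. Bst2 stood at 436 against 256 and 267, and Ifi27l2a at 3158 against 1449 in WT and 2527 in Cd226-/-. Ifnar1 stood at 71.3 against 60.2 and 60.3, and Ifnar2 at 190 against 144 and 142, all under 1.5-fold.

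Macrophages formed 2 clusters and both held the difference. Cluster 0, led by Trem2, Ms4a7 and C3ar1, had a core level of 2434 (2402–2467) in naive CD45+, 775 (708–847) in WT and 643 (587–702) in Cd226-/- skin. Cluster 8 had 1499 (1472–1525) in naive CD45+, 2200 (2067–2339) in naive CD45-, 790 (746–836) in WT and 679 (646–714) in Cd226-/- skin. Within both clusters every naive interval lies above every treated one. Naive CD45+ macrophages were deeper (median 9244 UMIs against 4685 and 5953), while naive CD45- ones (5182) were not; stress genes stood at 21173 and 16207 in the naive and 25387 and 21460 in the treated libraries. Fibroblast markers were at 12006 in naive CD45- macrophages against 106 in naive CD45+, 1914 in WT and 648 in Cd226-/- ones, and their part was not tested.

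Dendritic cells could be compared with Cd226-/- skin only, since WT had 88. Of 35 members with 50 UMIs, 24 were at least 1.5-fold higher in naive cells, against 15.5% of all genes, and 0 were at least 1.5-fold lower, against 6.05%. The median log2 ratio was 1.12 (0.04 over all genes) and the core list 2.79-fold (2.57–3.03) higher. Rsad2 stood at 51.2 in naive and 2.20 in Cd226-/- cells (23.2-fold, 8.96–86.0), and Ifit3 at 29.9 and 1.10 (27.2-fold, 7.39–227). Ifit3b stood at 11.4 against 0 UMIs, 6.89-fold with the 0 set to 3 counts and at least 5.41-fold by the exact interval. The 88 WT cells held Rsad2 at 1.52 and Ifit3 at 1.52, as low as Cd226-/- cells. Isg15 stood at 184 against 42.4 (4.33-fold, 3.43–5.55), Irf7 at 206 against 140, Bst2 at 522 against 430 and Ifi27l2a at 1550 against 1027. Irf9 (52.9 and 57.8), Ifnar1 (61.3 and 61.7) and Ifnar2 (127 and 128) did not differ beyond counting error. None of the 3 transcription factors reached 1.5-fold here. With each library clustered on its own, 10 members in place of 24 were at least 1.5-fold higher. Macrophage markers summed to 4019 in naive against 1125 in Cd226-/- dendritic cells, and their part in the ratios was not tested.

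The class named Langerhans from Cd207, Epcam, Mfge8, Ltc4s and H2-M2 was led by Ccl22, Ccr7, H2-M2, Il4i1, Zmynd15, Ccl17 and Cd207. Ccr7, Ccl22 and Ccl17 are also known from mature, migrating dendritic cells. The class numbered 34 cells in naive CD45+ skin, where its markers summed to 1914 against 8536 in WT and 9340 in Cd226-/- cells. Macrophage markers there summed to 10693, against 5704 and 4068. The part of these differences in the levels was not tested, and only levels are given. The core list stood at 1919 there against 346 (325–369) in WT and 330 in Cd226-/- cells. Isg15 stood at 503 in naive, 136 in WT and 138 in Cd226-/- cells, and Rsad2 at 232, 22.8 and 5.04. The direction was that of the other myeloid classes. Irf7 stood at 250, 38.4 and 42.3, Ifit3 at 60.0, 2.9 and 0.840, Bst2 at 387, 185 and 231 and Ifi27l2a at 1169, 384 and 314. Ifnar1 went the other way, with 29.0 in naive (14 UMIs) against 102 and 104 in treated cells, and Ifnar2 stood at 66.2, 72.1 and 79.2.

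Lymphocytes differed at a smaller share of members than neutrophils, monocytes and macrophages did, and not only in the core list. Of 25 and 26 members with 50 UMIs, 7 were at least 1.5-fold higher in naive cells than in WT (28.0% of them, 15.4% of all genes) and 8 than in Cd226-/- (30.8%, 14.4% of all genes). In each comparison 1 member was at least 1.5-fold lower, against 13.6% and 16.4% of all genes. The median log2 ratios were 0.29 and 0.40, over 0.07 and 0.04 for all genes. The core list was 1.94-fold (1.76–2.15) above WT and 2.28-fold (2.08–2.51) above Cd226-/-. Ifit1 stood at 37.3 in naive, 4.55 in WT and 2.38 in Cd226-/- cells, 8.19-fold (4.48–16.2) and 15.6-fold (8.22–32.8). Rtp4, a receptor-transporting protein induced by interferon, stood at 57.0, 18.2 and 12.3, and Usp18 at 26.3, 8.40 and 4.11. These 3 led in both comparisons. Isg15 stood at 167, 76.0 and 67.3, Irf7 at 72.9, 52.9 and 50.9 and Bst2 at 230, 133 and 198. Ifit3 rests on few counts, with levels of 11, 1.05 and 1.08.

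Several lymphocyte members stood level or lower in naive skin. The member at least 1.5-fold lower was Rsad2 against WT, at 11 against 16.4 (0.666, 0.374–1.15), and Ifnar2 against Cd226-/-. Ifnar2 stood at 47.7 in naive, 67.9 in WT and 82.1 in Cd226-/- cells, 1.42-fold (1.10–1.86) and 1.72-fold (1.36–2.20) lower. Ifnar1 stood at 63.0, 68.2 and 86.0, Ifi204 at 43.8, 58.1 and 53.5 and Ifi27l2a at 514, 598 and 476. Ifnar2 thus stood opposite to the core list in this class. The core difference was present within lymphocyte clusters. Cluster 6 had a core level of 492 (450–537) in naive, 279 (258–302) in WT and 236 (219–254) in Cd226-/- skin. Cluster 16 had 508 (454–567) in naive CD45+, 94.6 (66.9–130) in WT and 118 (93.0–148) in Cd226-/- skin. Neutrophil markers stood at 37.8 in naive lymphocytes against 489 and 1062 in treated ones, and their part in the core levels was not tested.

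Fibroblasts of the naive CD45- library showed no general elevation over treated ones. Of 36 and 37 members with 50 UMIs, 3 were at least 1.5-fold higher in naive CD45- fibroblasts than in WT and 3 than in Cd226-/- (11.7% and 13.8% of all genes), while 11 and 13 were at least 1.5-fold lower. As a share of members that is 30.6% and 35.1%, against 20.7% and 25.1% of all genes. The median log2 ratios were -0.32 and -0.43, and those over all genes -0.19 and -0.20. The core list stood at 308 in naive CD45-, 303 in WT and 366 in Cd226-/- fibroblasts. It was 1.02-fold (0.996–1.04) WT and 1.19-fold (1.16–1.21) below Cd226-/-, and the first turned from above to below 1 (0.926) when cells were weighed equally. Under TMM scaling, which sets the bulk of genes level, the core ratios were 1.20 and 0.995, the median log2 ratios of members -0.08 and -0.20, and 6 and 10 members were at least 1.5-fold lower. The 153 fibroblasts of the naive CD45+ library stood apart, with a core level of 768 (733–804), above all 3 of these levels. They held Isg15 at 239, Irf7 at 106, Bst2 at 452 and Ifit3 at 48.4, each above the other libraries, and Slfn5 at 260 and Ifi204 at 195, below both treated libraries.

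Several members lower in naive fibroblasts were higher in naive neutrophils or monocytes. Oas3 stood at 0.380 in naive CD45-, 2.75 in WT and 2.74 in Cd226-/- fibroblasts, 7.22-fold (4.74–11.4) and 7.20-fold (4.69–11.4) lower. Slfn5, a Schlafen family member, stood at 140, 334 and 519, 2.38-fold (2.32–2.44) and 3.70-fold (3.61–3.79) lower. Ifi204 stood at 114, 298 and 405. These 3 were farthest below 1 in both comparisons when ranked by the interval's bound nearest 1, and they stayed below 1 under TMM scaling. Usp18 went the other way with 58.4, 23.0 and 26.9, 2.54-fold (2.38–2.72) and 2.17-fold (2.02–2.32) higher, and Oas1a followed the library split with 2.32, 0.800 and 0 UMIs. Oas1a is 1 of the 3 members counted as higher in naive fibroblasts in each comparison.

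Of 4 IFIT genes with 50 UMIs in fibroblasts, 0 passed 1.5-fold against WT and 1 against Cd226-/-. That was Ifit3b, at 3.96 in naive CD45-, 3.52 in WT and 2.07 in Cd226-/- cells (1.91-fold, 1.49–2.48, against Cd226-/-), while Ifit1 stood at 33.2, 37.1 and 47.6. Ifit3 stood at 16.7 in naive CD45-, 18.0 in WT and 18.3 in Cd226-/- cells, and Ifit2 at 15, 13.2 and 13.6. Isg15 stood at 81.8, 76.8 and 111, Irf7 at 34.5, 44.6 and 64.8 and Bst2 at 182, 299 and 311. Stat2 was lower in naive cells, with 29.4 against 56.3 and 57.4. The receptor chains were lower as well, with Ifnar1 at 25.4, 32.9 and 32.9 and Ifnar2 at 48.7, 77.2 and 99.0. Ifi27l2a stood at 1158, 731 and 1111, which sets WT apart from the other libraries.

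Core levels differed more between fibroblast clusters than between libraries. Naive cluster 28 (2766 cells) stood at 847 (833–861), while naive clusters 23, 24, 18 and 2 stood at 109, 82.4, 100 and 155 and cluster 17 at 411. In treated skin cluster 9 stood at 788 (768–809) in WT and 652 (636–669) in Cd226-/-, against 388 and 387 in cluster 19 and 132 and 84.2 in cluster 3. The highest of these clusters thus differed between naive CD45- and treated skin. Clusters present in both naive and treated skin differed in direction. In cluster 4 the level was 309 (271–350) in naive CD45-, 268 (258–279) in WT and 308 (298–319) in Cd226-/- skin. Cluster 26 had 64.0 (39.1–98.9) in naive CD45-, 124 (92.4–164) in WT and 207 (161–263) in Cd226-/- skin. Cluster 17 had 411 (392–430) in naive CD45- against 247 (203–298) in WT skin. Stress genes stood at 25731 in naive against 21334 and 17984 in treated fibroblasts.

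Ratios in endothelial cells were taken against WT only, since Cd226-/- had 57 cells. Of 24 members with 50 UMIs, 1 was at least 1.5-fold higher in naive CD45- cells (11.2% of all genes) and 6 were lower (25.0%, against 12.1% of all genes), with a median log2 ratio of -0.19 and -0.01 over all genes. The core list stood at 420 (365–480) in naive and 641 (594–690) in WT cells, 1.53-fold (1.31–1.79) lower in naive ones. In the 57 Cd226-/- cells it stood at 232 (183–289), so naive cells lay between the treated libraries. Bst2 stood at 277 in naive against 720 in WT cells, 2.60-fold (2.17–3.13) lower, and Rtp4 at 33.6 against 75.7. Irf9 stood at 33.6 against 69.3 and Irf7 at 33.6 against 62.0. The member farthest the other way was Ifih1, at 49.5 against 27.4 (1.81-fold, 1.02–3.18), followed by Phf11d (83.1 against 55.6) and Ifnar2 (115 against 87.5). Isg15 stood at 115 against 157, opposite in direction to neutrophils and monocytes. Ifit3 stood at 7.92 against 19.1, Ifi27l2a at 59.4 against 72.0 and Ifnar1 at 39.6 against 40.1. Stress genes stood at 22981 in naive against 13656 in WT endothelial cells, and their part was not tested.

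**Figure D4:**
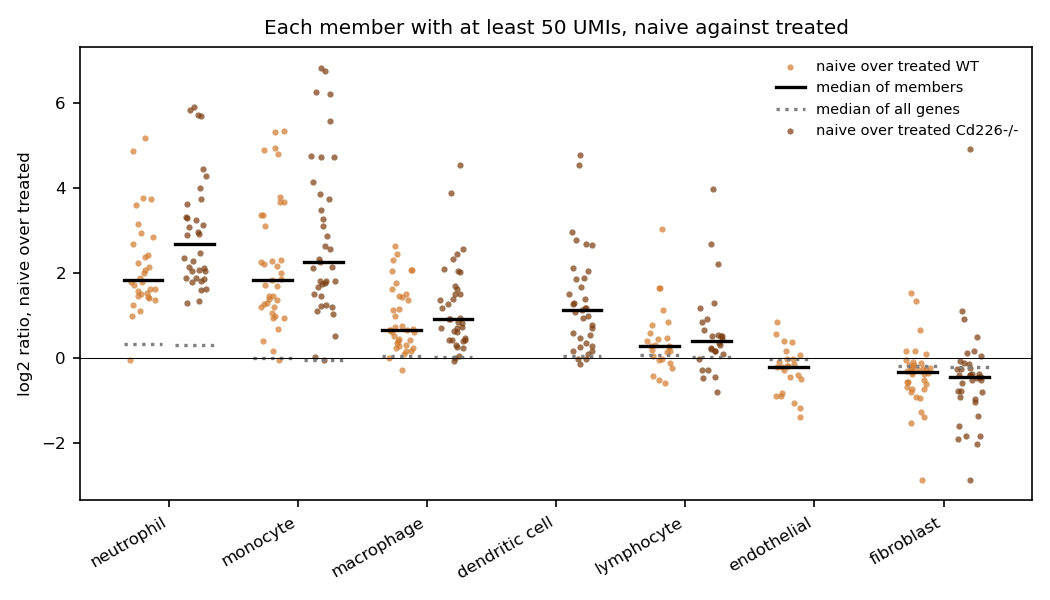
Log2 ratio of naive over treated (vertical axis) for each member with at least 50 UMIs, by class (horizontal axis), against treated WT and treated Cd226-/- (colors), with the median of members (black) and of all genes (dotted gray). Member medians lie at 1.84 and 2.68 in neutrophils and at -0.32 and -0.43 in fibroblasts.

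Single cells were compared after each was thinned to 1000 UMIs, counting core UMIs per cell; no kept cell was shallower. Naive neutrophils had a mean of 13.8 and a median of 6, with at least 1 core UMI in 82.7% (79.2–85.8) and at least 5 in 55.3%. WT neutrophils had a mean of 3.38, with 75.6% and 24.4%, and Cd226-/- neutrophils a mean of 2.98, with 65.2% and 22.5%. Naive and WT neutrophils thus differed less in the share with any core UMI than in the share with 5 or more. A thinned Isg15 UMI was in 74.3% of naive, 72.4% of WT and 58.1% of Cd226-/- neutrophils, while Ifit3 was in 17.5%, 0.641% and 0.375% and Rsad2 in 49.8%, 19.2% and 11.6%. Without thinning, Isg15 was in 86.5%, 84.0% and 79.8% at median depths of 2866, 3222 and 2982. For scale, 6.56% of naive keratinocytes, where the list was near its lowest, had a core UMI at a median depth of 6080, and 9.86% of WT keratinocytes.

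Naive monocytes had a core UMI in 74.4% (68.6–79.6) of cells, with a mean of 5.59 and a median of 2, and 33.7% had at least 5. Treated monocytes had one in 40.3% (WT, mean 0.939) and 25.6% (Cd226-/-, mean 0.449), with 5 or more in 3.96% and 1.29%. Naive CD45+ macrophages had one in 47.8% (45.3–50.2), with a mean of 1.91 and 12.9% at 5 or more. Naive CD45- macrophages had one in 68.6% (57.7–78.2), with a mean of 2.10. Treated macrophages had means of 0.704 in WT and 0.744 in Cd226-/- skin, and 35.8% and 38.2% of them had a core UMI. The shift in macrophages was therefore in both the share of cells and the number per cell. Fibroblasts differed little, with 20.1% in naive CD45-, 22.1% in WT and 22.0% in Cd226-/- skin and means of 0.339, 0.366 and 0.390.

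**Figure D5:**
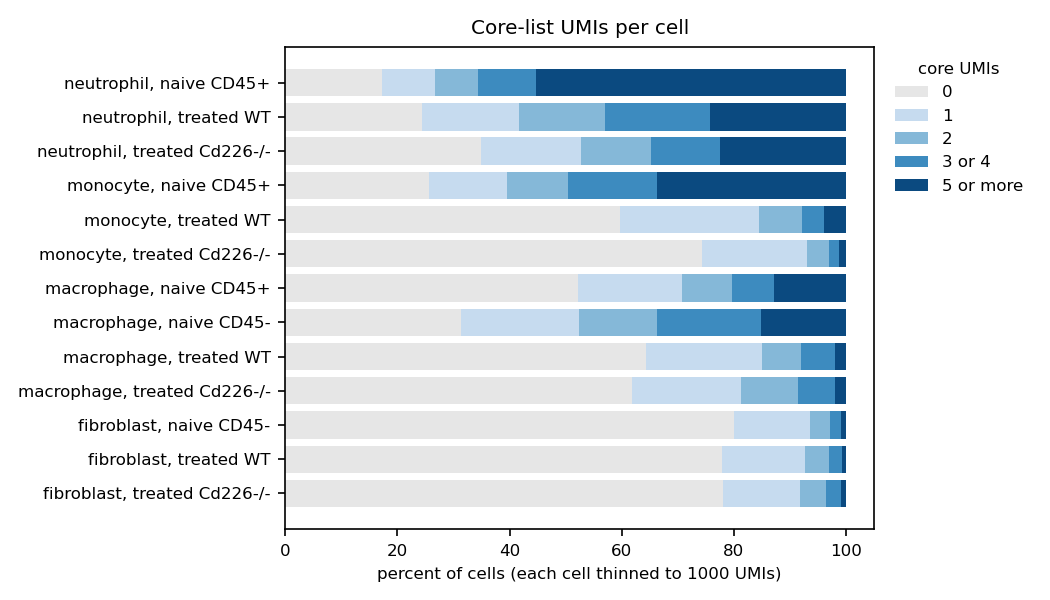
Share of cells (horizontal axis, percent) with 0, 1, 2, 3 or 4, and 5 or more core-list UMIs after thinning to 1000 UMIs per cell, for classes and libraries (rows). Cells with 5 or more make up 55.3% of naive neutrophils, 33.7% of naive monocytes and 12.9% of naive CD45+ macrophages, against 24.4%, 3.96% and 1.96% in WT.

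The signal was uneven between cells of a class. The richest 10% of cells carried 42.0% of core UMIs in naive neutrophils, 47.7% in monocytes, 59.8% in naive CD45+ and 35.9% in naive CD45- macrophages, and 70.3% in naive fibroblasts. The same share was 43.0% in WT and 46.5% in Cd226-/- neutrophils, close to the naive 42.0%. In macrophages it was 56.3% in WT and 50.7% in Cd226-/- skin, against 59.8% in naive CD45+ skin. In monocytes it was higher in treated skin, at 61.8% in WT and 65.2% in Cd226-/- against 47.7% in naive cells. Mean core UMIs per cell differed widely between these classes, and their part in the shares was not tested. With the richest 10% left out of every library, the mean per cell was 8.92 in naive against 2.15 and 1.77 in treated neutrophils, 3.25 against 0.399 and 0.174 in monocytes, and 0.854 against 0.342 and 0.408 in macrophages. The remaining 90% of cells thus still stood above treated ones. Of the richest naive CD45+ macrophages 71.7% were in cluster 0, against 50.3% of the others, and of the richest naive fibroblasts 67.9% were in cluster 28, against 22.7% of the others.

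Members appeared in the same cells. The 92 naive neutrophils with a thinned Ifit3 UMI had a mean of 34.5 UMIs of the other core genes, against 9.07 in the 434 without. For Rsad2 the means were 16.7 in 251 cells and 2.78 in 275. In naive monocytes the means were 17.2 with Ifit3 and 3.69 without, and in naive CD45+ macrophages 7.80 and 1.5. Cells holding Ifit3 were thus several-fold richer in the rest of the list in each of these classes. In naive fibroblasts the contrast was 2.52 in 157 cells against 0.287 in 10018. Treated skin had it too, with 1.94 in 81 WT fibroblasts against 0.311 in 4070. In naive CD45- macrophages it was smaller, at 4.00 in 6 cells against 1.89 in 80. No test was made on these, since cells of 1 library are not replicates.

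Treated Cd226-/- and treated WT skin were compared in the same way. In neutrophils 6 of 20 members were at least 1.5-fold lower in Cd226-/- (30%, against 9.61% of all genes) and 0 higher (5.77% of all genes), with a median log2 ratio of -0.49 and -0.03 over all genes. In monocytes 10 of 32 were lower (31.2%, against 5.63%) and 0 higher (4.27%), with a median of -0.39 and 0.03 over all genes. The core list was 1.41-fold (1.34–1.49) lower in neutrophils and 1.84-fold (1.74–1.94) lower in monocytes. Rsad2 in neutrophils stood at 286 in Cd226-/- against 592 in WT, 2.07-fold (1.77–2.41) lower, with Ifi27l2a at 239 against 424 and Slfn5 at 69.6 against 123. In monocytes Ifi44 stood at 56.4 against 113, 2.01-fold (1.74–2.32) lower, and Isg15 at 98.2 against 224. Members farthest the other way in monocytes were Ifnar1 (133 against 121), Ifih1 and Ifit1, all with intervals that include 1. If all S100a8 and S100a9 UMIs were shed by neutrophils, such RNA would account for 8.87% of the core level in WT and 6.92% in Cd226-/- monocytes. Its part was not tested.

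The core list of endothelial cells stood at 641 in WT and 232 in the 57 Cd226-/- cells, too few for ratios by gene. In macrophages 4 of 34 members were at least 1.5-fold lower in Cd226-/- (11.8%, against 4.04% of all genes) and 1 higher (2.94%, against 5.08%). Herc6, which joins ISG15 to proteins in the mouse, stood at 11.2 against 24.9 (2.22-fold lower, 1.42–3.53), Oas3 at 18.8 against 33.8 and Ifi44 at 69.8 against 110. The gene higher there was Ifi27l2a, at 2527 against 1449 (1.74-fold, 1.67–1.82), with Oasl1 at 58.0 against 40.9 and Bst2 at 267 against 256. The macrophage core list was 1.17-fold lower as a sum, while the mean per thinned cell was 0.744 in Cd226-/- and 0.704 in WT macrophages. In lymphocytes 0 of 25 members passed 1.5-fold lower (3.43% of all genes) or higher (5.63%), with Bst2 highest at 198 against 133, Parp14 at 35.7 against 49.4 and Trim30a at 69.9 against 88.5. In Langerhans cells 2 of 28 were lower (7.14%, against 8.72%) and 1 higher (3.57%, against 2.50%). Rsad2 there stood at 5.04 against 22.8 (4.53-fold lower, 2.65–8.13) and Oasl2 at 5.32 against 11.6, while Oasl1 was at 25.5 against 16.7 and Ifi44 at 48.1 against 37.0. In fibroblasts 5 of 36 were higher in Cd226-/- (13.9%, against 6.94%) and 2 lower (5.56%, against 5.90%). Slfn5 stood at 519 against 334 there, Ifi44 at 1.20 against 0.432 and Oasl1 at 1.77 against 0.713. Cmpk2 (6.06 against 10.0), Ifit3b (2.07 against 3.52) and Herc6 (9.01 against 11.8) were lower. The fibroblast core list was 1.21-fold higher in Cd226-/-, so the direction differed from monocytes. The comparisons of naive with Cd226-/- and of Cd226-/- with WT share the Cd226-/- library and are not independent.

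Of 20 interferon ligand genes listed, 1 had any UMI. Ifnb1, which codes for interferon-β, had 7 UMIs in WT, 17 in Cd226-/-, 2 in naive CD45- and 24 in naive CD45+ cells. The 24 UMIs came from 15 cells, with 9 UMIs in 4 monocytes, 6 in 6 macrophages and 4 in 2 dendritic cells. In treated Cd226-/- skin 10 UMIs came from 5 macrophages. The other 19, among them the interferon-α genes, Ifne, Ifnk and the interferon-λ genes Ifnl2 and Ifnl3, had 0 UMIs in every library. In the shallowest, naive CD45+, the exact interval of a count of 0 has an upper limit of 0.111 per 1000000. Levels under that limit were not detectable at this depth.

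Other genes of the pathway were read from lists of non-members. Of 18 sensors and signaling genes, 15 had 50 UMIs in naive and WT monocytes, with 5 at least 1.5-fold higher in naive and 1 lower, where 8.32% and 8.11% of all genes were, and a median log2 ratio of 0.36 (0.00 over all genes). In macrophages 17 had 50 UMIs, with 1 higher and 2 lower (14.6% and 7.62% of all genes) and a median of -0.03 (0.06 over all genes). Jak1, the kinase bound to IFNAR2, stood at 179 in naive and 179 in WT monocytes. Tlr7, an endosomal RNA sensor, differed more, with 59.2 in naive, 20.9 in WT and 20.6 in Cd226-/- monocytes and 80.2, 36.7 and 31.3 in macrophages. Ube2l6, which carries ISG15 to its targets, stood at 96.3, 31.6 and 23.2 in monocytes, so it followed the members, and Uba7, the enzyme before it, at 29.6, 16.7 and 14.0. The negative regulator Socs3 was lower in naive monocytes (261 against 758 and 679) and is also on the stress list.

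Genes that lean to interferon-γ followed the members in some classes and comparisons and not in others. Cxcl9, a chemokine gene of the interferon-γ response, stood at 18.6 in naive, 79.6 in WT and 3.21 in Cd226-/- monocytes and at 20.6, 93.5 and 5.93 in naive CD45+, WT and Cd226-/- macrophages. Naive cells lay between the treated genotypes, whereas for Ifit2 and Ifit3 they lay above both. Irf1 stood at 84.4, 80.8 and 54.3 in macrophages. In WT monocytes 3 of 6 genes of this comparison list were at least 1.5-fold higher than in naive ones (8.11% of all genes) and 1 was lower (8.32%), a median log2 ratio of -0.55 for naive over WT (0.00 over all genes). In fibroblasts 5 of 6 were at least 1.5-fold lower in naive than in WT cells, against 20.7% of all genes, with a median of -1.59 (-0.19 over all genes). In neutrophils 3 of 4 genes of this list were at least 1.5-fold higher in naive than in WT cells (35.5% of all genes). Against Cd226-/- it was also 3 of 4 (33.9%), and 0 were lower in both comparisons (12.1% and 9.15%). The medians were 1.12 and 1.23 (0.33 and 0.32 over all genes). Naive macrophages had 5 of 7 higher than Cd226-/- and 1 lower (16.2% and 9.77% of all genes). Naive monocytes had 2 of 6 higher than Cd226-/- and 1 lower (8.51% and 9.50%).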

How the data were processed

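The submitters' processing notes name Cell Ranger 3.1.0 and the mm10 build; the deposited matrices hold whole-number UMI counts per gene and barcode, with no normalization by the authors, for 8527 WT, 7991 Cd226-/-, 11875 naive CD45- and 5913 naive CD45+ barcodes. Cells with at least 500 genes, 1000 UMIs and at most 10% mitochondrial UMIs were kept, which left out 2307 naive CD45+ barcodes for mitochondrial content. Doublets were called by Scrublet in scanpy 1.11.5 (expected rate 0.06); it called 0.256% in the naive CD45+ library, so there the 5% with the highest scores were removed. Cells were clustered (2000 variable genes without the members and other interferon genes, 30 components, 15 neighbors, Leiden resolution 1.0, 31 clusters) and named from marker lists. UMIs were summed per class and library. Levels have exact Poisson and ratios exact conditional binomial 95% intervals (scipy 1.17.1), shares exact Clopper-Pearson ones; PCR duplicates are removed by UMI, and these cover counting error only. Ratios were taken in classes with at least 100 cells in both libraries, levels with at least 20, and genes with at least 50 UMIs; 1.5-fold was the size rule, and a count of 0 was set to 3 counts. Named genes were the 3 members farthest from 1 in each direction by the interval's nearest bound, plus Isg15, Irf7, Ifit3, Bst2, Ifi27l2a and the receptor chains in each class described; further members named to describe a role were chosen after their values were seen. TMM (edgeR 4.0.16) and median-of-ratios (DESeq2 1.42.0) factors served as alternatives. The ratio code was tested on simulated data. The members and lists were chosen with earlier results of these data known.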

Additional observations from a re-analysis of the deposited data

Results flagged for a closer look

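Several members stood higher in 1 class of naive skin and lower in another under the same contrast. Those listed had the whole interval at least 2-fold higher in 1 class and at least 2-fold lower in the other. Where more classes passed, the largest and smallest ratios are given. With 1 library per group the difference between classes was not tested. Against WT, Oas2 had a naive-over-treated ratio of 3.31 in neutrophils and 0.348 in fibroblasts, and Slfn5 of 5.33 and 0.420. Oas3 had 2.74 in monocytes and 0.138 in fibroblasts, and Ifi204 2.59 and 0.381. Bst2 had 3.11 in neutrophils and 0.385 in endothelial cells. Against Cd226-/-, neutrophils and fibroblasts had 8.70 and 0.281 for Oas2 and 9.45 and 0.271 for Slfn5. Monocytes and fibroblasts had 4.81 and 0.139 for Oas3, 9.70 and 0.246 for Ifi44, 3.50 and 0.280 for Ifi204, and 13.3 and 0.331 for Phf11d. Immune and fibroblast values come from different naive libraries, so class and library cannot be told apart here.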

How the results depend on the processing

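No paired analysis was possible because each group is 1 library, and leaving out a replicate was not possible either. No value past 1.5-fold turned to the other direction, but smaller ones crossed equality. The core ratio went from 1.02 to 0.926 as a mean over cells and 0.927 without the richest 10% in naive against WT fibroblasts. For Cd226-/- over WT it went from 0.953 to between 1.013 and 1.043 in Langerhans cells under 4 settings (TMM, median-of-ratios, each gene's richest cell left out, mean over cells) and from 0.853 to 1.00 in macrophages without the richest 10%. Median log2 ratios went from -0.19 to 0.03 in endothelial cells and from 0.06 to -0.03 in fibroblasts of Cd226-/- over WT as means over cells, and from -0.14 to 0.02 in macrophages of Cd226-/- over WT with own-library clusters. Of the values that answer a comparison, 164 stayed close to the reported value and 37 moved when a single processing choice was changed, and 16 and 4 under changes chosen after seeing the data (naive CD45- macrophages; the richest 10% of cells left out). Members at least 1.5-fold higher in naive monocytes numbered 8 against WT and 19 against Cd226-/- with the members kept among the variable genes. Dendritic cells had 10 with each library clustered on its own. Lymphocytes against WT had 13 with no filter on low counts, 11 as a mean over cells, 16 with own-library clusters and 16 with doublets kept; against Cd226-/- they had 13, 13, 18 and 15, and 13 at 5% mitochondrial UMIs and 5 without the richest 10% of cells. Members lower in naive fibroblasts against WT numbered 6 under TMM and 6 under median-of-ratios scaling; in endothelial cells 12 with no filter and 10 at resolution 2.0. Members lower in Cd226-/- than WT with no filter numbered 17 in neutrophils, 7 in macrophages, 6 in Langerhans cells, 5 in lymphocytes and 4 in fibroblasts. Own-library clusters gave 10 in neutrophils and 1 in lymphocytes; the mean over cells gave 2 in macrophages and 2 in lymphocytes. Without the richest 10% of cells it was 1 each in macrophages, lymphocytes and Langerhans cells. Lymphocytes had 1 under TMM and 1 under median-of-ratios scaling. Langerhans cells had 1 without each gene's richest cell, 1 at 5% mitochondrial UMIs and 1 with doublets kept. Cells with a core UMI at 2000 UMIs and with no thinning were 91.2% and 93.2% of naive neutrophils, 84.6% and 96.5% of monocytes and 63.3% and 85.7% of macrophages; without Isg15 it was 70.9% of neutrophils. Apart from settings that change the genes tested or the depth, the cause was not tested. Own-library clusters could not be run for Langerhans and endothelial cells, nor 5% mitochondrial UMIs for endothelial cells (93 naive cells).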
